A study of Mus musculus with 2 samples.

Results

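Messages for the respiratory chain were examined in the transcriptomes of single CD8+ T cells. The gene set held complexes I, III and V, both cytochromes of the c type, and the 13 protein-coding messages of mitochondrial DNA (mtDNA). Its members were chosen by symbol, as the Nduf genes of families a, b, c, s and v, the genes of the Uqcr subunits, the Atp5 genes, Cyc1 and Cycs, and the mt- genes for Nd, Co, Cytb and Atp subunits. This gave 76 of 27998 listed genes. They are 36 nuclear genes with complex I symbols, 9 of complex III (Cyc1 included), 17 with complex V symbols, Cycs, and the 13 mtDNA messages, of which 7 belong to complex I, 1 to complex III, 3 to complex IV and 2 to complex V.

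The cells came from spleens and lymph nodes of OT-I mice aged 8 to 12 weeks. These mice carry a transgenic T cell receptor, so the cells share 1 specificity. Both cultures were activated for 48 h with SIINFEKL peptide, interleukin-2 being present at 100 U/ml, and then received expansion medium with the same cytokine. One culture was then put under transient glucose restriction (TGR, 1 mM glucose) and the other was kept at 11 mM glucose (control), for 20 h each, whereas the sample descriptions name 3 days of growth before the exposure. The labels say neither how many mice were pooled nor whether full glucose was restored before capture, so TGR values may describe restricted or recovering cells. There was 1 library per condition, so no difference below has a replicate check, no test of the conditions was possible, and every value describes these libraries. The intervals given are 95% exact intervals and cover counting error only.

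The respiratory chain passes electrons from NADH through complex I and from succinate through complex II to ubiquinone, on through complex III and cytochrome c, and to oxygen at complex IV. Complex V, the ATP synthase, uses the resulting proton gradient to make ATP. Most subunits are encoded in the nucleus and imported, while a small set of membrane subunits is transcribed and translated inside the organelle, so complexes I, III, IV and V are each built from the products of both genomes. Activated T cells are known to expand their mitochondria and to use both glycolysis and respiration.

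The TGR library held 2546 cells after barcodes with fewer than 500 genes or at least 10% of their UMIs (unique molecular identifiers, which count captured molecules) on mt- genes were removed, and the control library held 3127. Their UMIs summed to 19696068 in TGR and 14730128 in control, with medians per cell of 6266 UMIs in TGR and 4030 UMIs in control. The mitochondrial limit removed 2 TGR barcodes and 209 control barcodes. The libraries shared 9 barcodes among the cells kept. Messages for ribosomal proteins took a median of 49.9% of a cell's UMIs in TGR and 40.1% in control. Phase calls placed 58.6% of TGR cells in G1, 9.35% in S and 32.0% in G2/M, and 11.0% of control cells in G1, 11.9% in S and 77.1% in G2/M. In both libraries 7 of 8 CD8 T cell markers were listed and had UMIs, among them Cd8a at 248 CPM (UMIs of a gene per 1000000 UMIs of its library) in TGR and 364 CPM in control. Summed markers of B cells reached 20.1 CPM in TGR and 29.0 CPM in control, with 1 of 7 at 0 in each. Those of myeloid cells reached 59.2 CPM in TGR and 116 CPM in control, mostly through Cst3, with 4 of 7 at 0 in TGR and 3 of 7 in control. Their part in the results was not tested, and values in cells with a CD8 marker and no marker of another type are given with the other settings.

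Nuclear messages of the respiratory chain were lower in the TGR library as a broad group, while mtDNA messages differed less in sum. The 63 nuclear members summed to 13963 CPM in TGR and 22825 CPM in control, 1.63-fold lower, a log2 ratio of −0.71 (interval −0.72 to −0.70). The 13 mtDNA messages summed to 25420 CPM in TGR and 29046 CPM in control, 1.14-fold lower, a log2 ratio of −0.19 (interval −0.20 to −0.19). A member was scored when it had at least 10 CPM in either library, which 75 of 76 did, and was counted as lower or higher at 1.5-fold when its interval excluded a ratio of 1. Of the 62 scored nuclear members, 41 were lower (66.1%) and 2 were higher, Ndufa6 and Atp5sl. Among all 6667 scored genes, 21.8% were lower and 9.33% higher by the same rule. The median log2 ratio was −0.84 over the scored nuclear members, −0.22 over the mtDNA messages and −0.16 over all scored genes.

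The scale matters for the direction of members close to 0. With ribosomal protein and mt- genes left out of the library totals, every log2 ratio moves up by 0.26, so the median of all scored genes becomes 0.11 and that of the mtDNA messages changes sign to 0.042. On that scale 31 nuclear members were still lower and 2 higher, against 11.8% lower and 19.4% higher over all scored genes. Level is a further point of comparison. Of 1183 scored genes that reached 100 CPM in a library, ribosomal protein and mt- genes left out, 43.0% were lower and the median log2 ratio was −0.48. Among the nuclear members themselves the log2 ratio showed little relation to mean CPM (Pearson r = −0.048, Spearman rho = 0.075, n = 62 genes of the same libraries, given as a description).

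**Figure D1:**
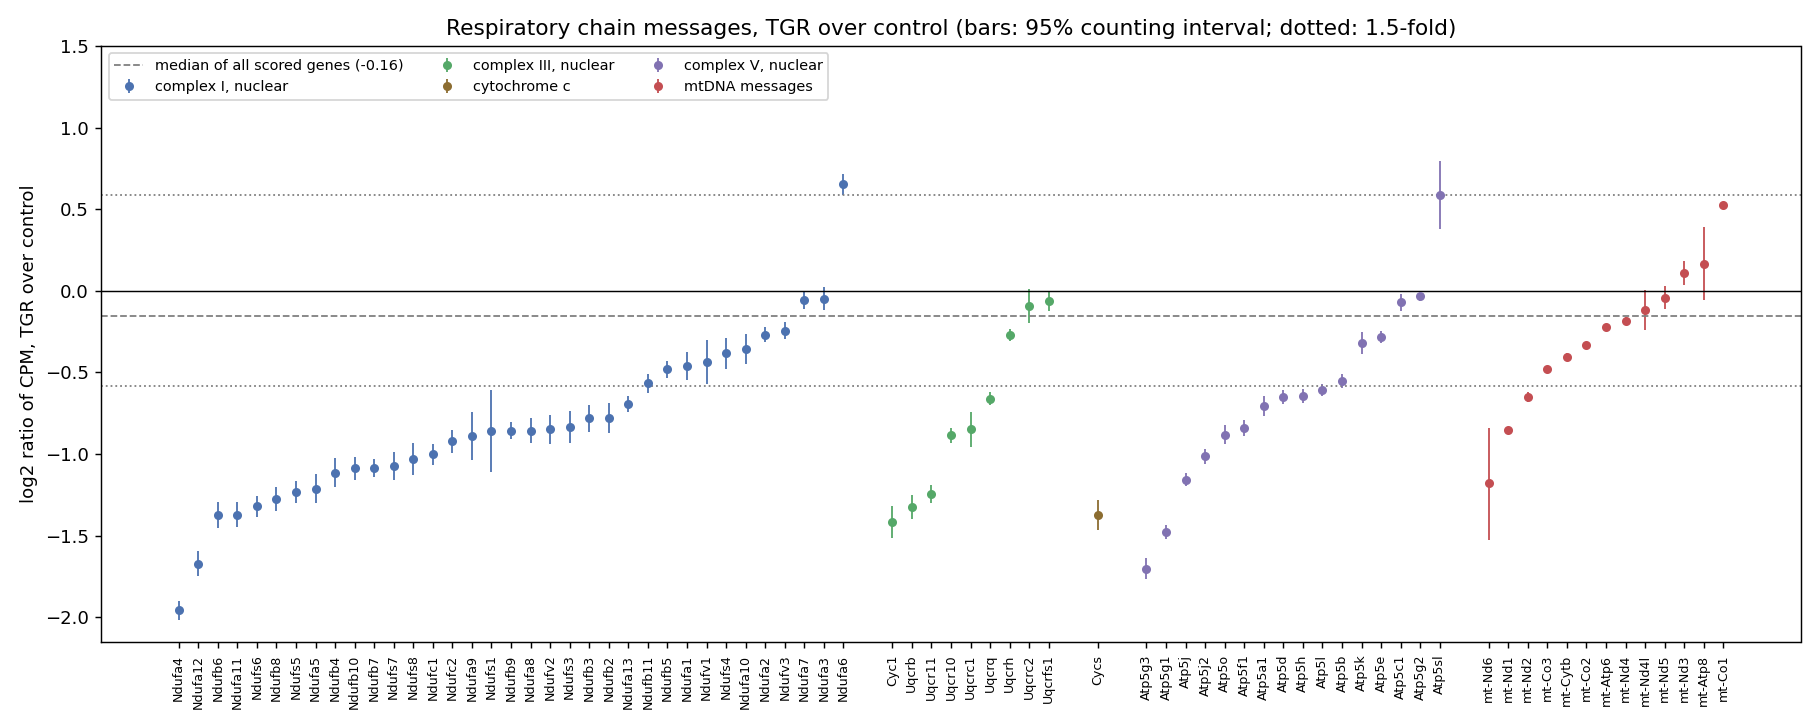
The log2 ratio of CPM, TGR over control, is plotted for scored members, ordered by ratio within each group, with 95% counting intervals; the dashed line is the median of all scored genes and dotted lines mark 1.5-fold. Most nuclear members of complexes I, III and V lie below the lower dotted line, Ndufa6 and Atp5sl lie at or above the upper one, and the mtDNA messages run from mt-Nd6 at −1.18 to mt-Co1 at 0.53.

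Complex I oxidises NADH and pumps protons. Its nuclear messages summed to 5555 CPM in TGR and 9422 CPM in control, a log2 ratio of −0.76. Of 36 genes, 24 were lower and 1 higher, with a median log2 ratio of −0.86. The lowest ratio belonged to Ndufa4, at 149 CPM in TGR and 578 CPM in control, 3.88-fold lower (log2 ratio −1.96, interval −2.02 to −1.90). The gene (ENSMUSG00000029632) is annotated on the minus strand of chromosome 6, positions 11900292 to 11907497 (GRCm38). Despite its symbol, the Ndufa4 protein is now known as a subunit of cytochrome c oxidase. Without it, 23 of 35 were lower and the median was still −0.86.

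The core of complex I carries the flavin and the iron-sulphur clusters that lead electrons to ubiquinone. Of its 7 nuclear-encoded subunits 5 were lower and 0 higher, with a median log2 ratio of −0.85. Ndufv1, which binds NADH and the flavin, was at 43.8 CPM in TGR and 59.3 CPM in control, a log2 ratio of −0.44 that did not reach 1.5-fold. Its partner in the NADH-oxidising module, Ndufv2, was at 94.8 CPM in TGR and 171 CPM in control (log2 ratio −0.85). Ndufs1, the large iron-sulphur subunit of that module, was near the scoring limit, at 11.8 CPM in TGR and 21.5 CPM in control (log2 ratio −0.86, interval −1.11 to −0.61). Closer to the ubiquinone site, the cluster-bearing subunit genes Ndufs7 (95.1 CPM in TGR and 200 CPM in control) and Ndufs8 (67.7 CPM in TGR and 138 CPM in control) had log2 ratios of −1.07 and −1.03. Ndufs3 was at 73.9 CPM in TGR and 132 CPM in control (log2 ratio −0.83), and 53.9% of the 50-base words in its 3′ end also occur in an annotated pseudogene, so its level is uncertain. The ratios of these core subunits thus ran from −1.07 to −0.44.

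The supernumerary subunits surround the core and are needed for assembly and stability. Of 28 genes, 18 were lower and 1 higher, with a median log2 ratio of −0.86. Ndufa12, which sits beside the NADH module, was at 96.2 CPM in TGR and 306 CPM in control (log2 ratio −1.67). Of the 50-base words of its 3′ end, 30.8% recur in a processed pseudogene. Ndufb6 and Ndufa11, both of the membrane arm, were at 101 CPM each in TGR and at 261 CPM and 262 CPM in control, with log2 ratios of −1.37 each. The Ndufb genes, whose proteins belong to the far part of the membrane arm, were lower in 8 of 10 cases and summed to 1643 CPM in TGR and 3059 CPM in control. Both Ndufc genes were lower as well. The Ndufa family was mixed, with 7 of 13 lower and 1 higher.

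At the other end, Ndufa6 was higher in TGR, at 319 CPM against 203 CPM in control, 1.57-fold (log2 ratio 0.65, interval 0.59 to 0.71). Its protein is a small LYR-motif subunit that anchors an acyl carrier protein to the complex. Ndufa3 stood at 195 CPM in TGR and 202 CPM in control, and Ndufa7 at 343 CPM in TGR and 356 CPM in control, with log2 ratios of −0.05 and −0.06. Ndufa2, of the NADH module, had the highest mean CPM in the complex, a level counted per molecule and not per length, at 454 CPM in TGR and 547 CPM in control (log2 ratio −0.27). Ndufa13, a membrane-bound subunit also known as GRIM-19, had the next highest, at 323 CPM in TGR and 521 CPM in control (log2 ratio −0.69). The gene overlaps Yjefn3 in the annotation, so reads there may be divided. Just inside the limit for a call among complex I genes lay Ndufa13, and just outside it lay Ndufb11, at 228 CPM in TGR and 337 CPM in control (log2 ratio −0.57). Within cells called G1 these calls were exchanged, with Ndufb11 at −0.62 and Ndufa13 at −0.58. Within S and G2/M they were as in all kept cells.

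Complex III carries electrons from ubiquinol to cytochrome c. Its 9 nuclear messages summed to 2249 CPM in TGR and 3578 CPM in control (log2 ratio −0.67), and 6 were lower and 0 higher. The redox subunits differed from each other. Cyc1, cytochrome c1, was at 63.3 CPM in TGR and 168 CPM in control (log2 ratio −1.41), whereas Uqcrfs1, the Rieske iron-sulphur protein, was at 264 CPM in TGR and 276 CPM in control (log2 ratio −0.06). The core proteins on the matrix side were also uneven. Uqcrc1 was at 62.8 CPM in TGR and 113 CPM in control (log2 ratio −0.85), and Uqcrc2 at 86.4 CPM in TGR and 92.1 CPM in control (log2 ratio −0.09, interval −0.20 to 0.013).

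Of the 5 small subunits of complex III, 4 were lower. Uqcrb, which contacts the cytochrome b subunit, was at 119 CPM in TGR and 299 CPM in control (log2 ratio −1.32), and 46.6% of the words in its 3′ end recur in other annotated genes. Uqcr11 was at 212 CPM in TGR and 503 CPM in control (log2 ratio −1.25). Uqcr10 was at 348 CPM in TGR and 643 CPM in control (log2 ratio −0.89). These are single-helix subunits at the edge of the membrane part. Uqcrq stood at 440 CPM in TGR and 696 CPM in control (log2 ratio −0.66). Uqcrh, the hinge protein that helps cytochrome c1 to dock cytochrome c, stood at 653 CPM in TGR and 788 CPM in control (log2 ratio −0.27). Cycs, the mobile carrier cytochrome c itself, was at 76.6 CPM in TGR and 198 CPM in control, 2.59-fold lower (log2 ratio −1.37, interval −1.46 to −1.28). Among these 10 genes Cyc1, Cycs and Uqcrb had the lowest ratios, and their intervals overlap.

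Complex V consists of the F1 head, which makes ATP, and the membrane part Fo with its rotating ring of subunit c, joined by a central and a peripheral stalk. Its nuclear messages summed to 6083 CPM in TGR and 9627 CPM in control (log2 ratio −0.66). Of 16 scored genes 10 were lower and 1 higher, and Atp5s, with 41 UMIs in TGR and 49 UMIs in control, was not scored. Neither Atp5s nor Atp5sl encodes a subunit of the enzyme. Without them 10 of 15 were lower and 0 higher, and each of the 15 ratios was below 0 on the total UMI scale. With ribosomal protein and mt- genes left out of the totals, the ratios of Atp5c1 and Atp5g2 turn positive.

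In the F1 head 2 of 5 genes were lower. Atp5a1, the alpha subunit, was at 188 CPM in TGR and 306 CPM in control (log2 ratio −0.70). Atp5d, the delta subunit, was at 440 CPM in TGR and 690 CPM in control (log2 ratio −0.65). Atp5b, the catalytic beta subunit, was just outside the limit at 417 CPM in TGR and 613 CPM in control (log2 ratio −0.55). It passed the limit within cells called G1 (−0.61) and S (−0.65) but not within G2/M (−0.52). The alpha and beta subunits form the ring that holds the catalytic sites, and their ratios were close to each other. Atp5e, the epsilon subunit, was at 733 CPM in TGR and 891 CPM in control (log2 ratio −0.28), and Atp5c1, the gamma subunit of the rotor shaft, at 368 CPM in TGR and 387 CPM in control (log2 ratio −0.07).

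All 4 genes of the peripheral stalk, which keeps the head from turning, were lower, and they summed to 1367 CPM in TGR and 2548 CPM in control (log2 ratio −0.90). The lowest of them was Atp5j, coupling factor F6, at 427 CPM in TGR and 951 CPM in control (log2 ratio −1.16). Of the 3 small membrane subunits 2 were lower, among them Atp5j2, subunit f, at 361 CPM in TGR and 728 CPM in control (log2 ratio −1.01). Atp5l, subunit g, and Atp5h of the stalk share 75.2% and 53.1% of the words in their 3′ ends with other annotated genes, and their levels are uncertain for that reason. Atp5sl, now known as a factor for the assembly of complex I, was at 28.9 CPM in TGR and 19.3 CPM in control (log2 ratio 0.59, interval 0.38 to 0.80), which is higher and right at the limit. Within cells called G1 neither it (log2 ratio 0.17) nor Ndufa6 (0.54) reached 1.5-fold.

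Subunit c, whose copies form the ring that protons turn, is encoded by Atp5g1, Atp5g2 and Atp5g3. The precursors differ in their import sequences, while the mature protein is known to be the same, so each gene supplies the same ring subunit. Their messages did not differ together. Atp5g3 was at 140 CPM in TGR and 457 CPM in control, 3.25-fold lower (log2 ratio −1.70, interval −1.77 to −1.64). Atp5g1 was at 321 CPM in TGR and 892 CPM in control (log2 ratio −1.48, interval −1.52 to −1.43). Atp5g2 stood at 936 CPM in TGR and 957 CPM in control, close to equal (log2 ratio −0.03, interval −0.06 to −0.00083).

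As a result, the make-up of the subunit c pool differed between the libraries. Atp5g2 gave 67.0% (interval 66.4 to 67.5) of 27515 subunit c UMIs in TGR and 41.5% (41.0 to 42.0) of 33975 in control. Atp5g1 gave 23.0% in TGR and 38.7% in control, and Atp5g3 gave 10.1% in TGR and 19.8% in control. Within cells called G1 the share of Atp5g2 was 63.6% in TGR and 42.5% in control, within S 63.2% in TGR and 40.4% in control, and within G2/M 72.5% in TGR and 41.5% in control. The order of the libraries was thus the same for each gene in each phase. Words of 50 bases from the 3′ ends of Atp5g1 and Atp5g2 recur in other annotated genes in 45.9% and 47.3% of cases, and how the authors' counting treated such reads is not given in the sources used here.

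**Figure D2:**
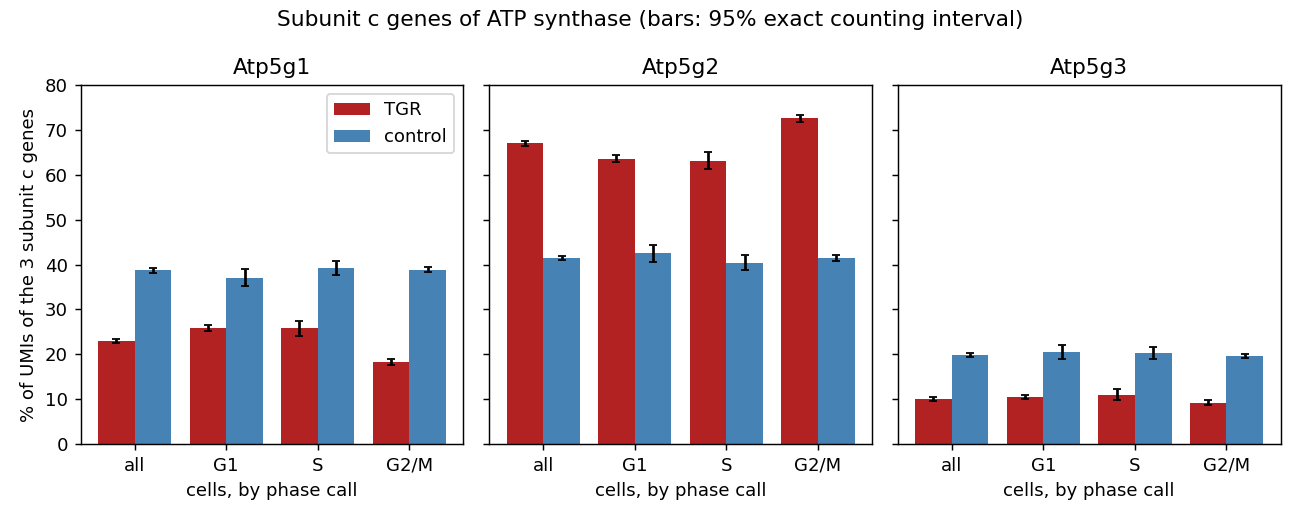
Bars give the share of each subunit c gene among the UMIs of all 3 genes, in all kept cells and in cells called G1, S or G2/M, for TGR and control, with exact 95% counting intervals. Atp5g2 lies between 63.2% and 72.5% in TGR and between 40.4% and 42.5% in control.

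The promoters of the genes that differed most within complexes I and V are shown because these genes mark the ends of the range, and because the subunit c genes had unlike ratios for the same product. Each window runs from 250 bases before to 50 bases after the RefSeq start (GRCm38.p6, read 5′ to 3′ on the gene's strand). The windows of Ndufa4, Atp5g3 and Ndufa6 belong to the nuclear members with the 2 lowest ratios and the highest ratio, and those of Atp5g1 and Atp5g2 were added after their values were seen. Capitals mark matches to GCGCANGCG, a binding sequence of the nuclear respiratory factor NRF1, searched on both strands. The windows are Ndufa4 at chr6:11907401-11907700, Ndufa6 at chr15:82354242-82354541, Atp5g1 at chr11:96075582-96075881, Atp5g2 at chr15:102670998-102671297 and Atp5g3 at chr2:73911277-73911576, all on the minus strand.
Ndufa4: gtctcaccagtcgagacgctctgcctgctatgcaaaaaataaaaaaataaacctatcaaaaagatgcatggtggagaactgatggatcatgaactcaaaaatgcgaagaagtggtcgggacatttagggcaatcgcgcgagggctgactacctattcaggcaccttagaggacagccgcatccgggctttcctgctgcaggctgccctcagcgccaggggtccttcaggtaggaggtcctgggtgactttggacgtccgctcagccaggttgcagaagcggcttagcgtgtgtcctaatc
Ndufa6: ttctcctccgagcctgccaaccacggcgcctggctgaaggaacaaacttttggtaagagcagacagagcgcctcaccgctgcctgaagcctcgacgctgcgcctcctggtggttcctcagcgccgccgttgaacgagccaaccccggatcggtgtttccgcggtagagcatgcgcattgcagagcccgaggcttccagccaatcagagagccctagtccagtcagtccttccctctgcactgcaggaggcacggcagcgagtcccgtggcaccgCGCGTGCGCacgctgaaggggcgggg
Atp5g1: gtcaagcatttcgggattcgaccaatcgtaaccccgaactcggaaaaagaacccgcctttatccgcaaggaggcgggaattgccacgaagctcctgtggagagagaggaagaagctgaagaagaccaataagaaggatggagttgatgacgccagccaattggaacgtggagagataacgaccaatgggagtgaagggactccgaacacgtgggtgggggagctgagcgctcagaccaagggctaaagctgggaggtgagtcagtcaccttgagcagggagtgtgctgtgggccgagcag
Atp5g2: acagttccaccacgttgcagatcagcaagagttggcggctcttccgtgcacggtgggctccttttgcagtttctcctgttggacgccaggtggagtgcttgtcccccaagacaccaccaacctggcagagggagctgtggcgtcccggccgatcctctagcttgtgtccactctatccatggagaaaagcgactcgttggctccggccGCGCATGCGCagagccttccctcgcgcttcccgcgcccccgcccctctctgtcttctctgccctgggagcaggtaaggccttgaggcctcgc
Atp5g3: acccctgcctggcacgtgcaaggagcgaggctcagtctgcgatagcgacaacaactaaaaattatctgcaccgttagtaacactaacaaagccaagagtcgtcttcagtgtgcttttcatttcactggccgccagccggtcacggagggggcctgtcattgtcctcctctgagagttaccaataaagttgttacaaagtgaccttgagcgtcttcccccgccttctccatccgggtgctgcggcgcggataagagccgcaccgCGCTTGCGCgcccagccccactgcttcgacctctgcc
The NRF1 letters stand after the start in Ndufa6 and Atp5g3 and before it in Atp5g2, where overlapping matches on both strands form 1 palindromic run. They do not occur in the windows of Ndufa4 and Atp5g1. The gene with the highest ratio and 1 of those with the lowest therefore both hold the letters.

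Windows were found for 54 of the 63 nuclear members and for 5401 of the 6667 scored genes. The NRF1 letters occurred in 17 of the 54 member windows (31.5%), in 14 of 35 windows of members counted as lower (40.0%) and in 3 of 19 windows of the other members (15.8%), against 17.2% of all scored windows. CCGGAAG, a binding sequence of ETS factors such as GABP, occurred in 18.5% of member windows and 23.8% of all. AAGATGGC, a binding sequence of YY1, occurred in 18.5% of member windows and 6.09% of all. Each was searched on both strands, and the windows printed hold neither the ETS nor the YY1 letters. The ETS letters and the YY1 letters each occurred in 7 of 35 windows of lower members (20%) and in 3 of 19 of the others (15.8%). No share was taken for lower genes outside the set. The counts are descriptions of letters in a fixed window and were not tested.

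The messages of mtDNA were examined next. They arise from long polycistronic transcripts of both strands that are cut into single messages, so their relative levels depend on processing and stability after transcription. Of the 13 messages 3 were lower, mt-Nd1, mt-Nd2 and mt-Nd6, and 0 were higher. The share of lower messages, 23.1%, is near the 21.8% of all scored genes. In the order of the genome, mt-Nd1 was at 1964 CPM in TGR and 3544 CPM in control (log2 ratio −0.85, interval −0.87 to −0.83). Its neighbour mt-Nd2 was at 863 CPM in TGR and 1354 CPM in control (log2 ratio −0.65). Both encode membrane subunits of complex I. The next message, mt-Co1, ran the other way, at 7305 CPM in TGR and 5065 CPM in control (log2 ratio 0.53, interval 0.52 to 0.54). It encodes the catalytic subunit of complex IV and spans positions 5328 to 6872 of mtDNA on the plus strand. The difference was 1.44-fold and so below the limit for a call, but it passed the limit with totals without ribosomal protein and mt- genes (log2 ratio 0.79) and in cells with under 5% mt- UMIs (0.59).

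The other complex IV messages, mt-Co2 at 2822 CPM in TGR and 3547 CPM in control (log2 ratio −0.33) and mt-Co3 at 3961 CPM in TGR and 5518 CPM in control (log2 ratio −0.48, and −0.65 with all deposited barcodes, past the limit), had ratios below 0. As a consequence the 3 complex IV messages together were at 14089 CPM in TGR and 14130 CPM in control. Of the ATP synthase messages, which overlap on the same strand, mt-Atp8 was at 21.4 CPM in TGR and 19.1 CPM in control (log2 ratio 0.17, interval −0.05 to 0.39) and mt-Atp6 at 5084 CPM in TGR and 5920 CPM in control (log2 ratio −0.22). Because mt-Atp8 and mt-Atp6 share 1 transcript in the cell, the division of reads between them is uncertain.

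Of the remaining complex I messages, mt-Nd3 was at 195 CPM in TGR and 181 CPM in control (log2 ratio 0.11), and mt-Nd4l, at 59.9 CPM in TGR and 65.0 CPM in control, had a log2 ratio of −0.12 (interval −0.24 to 0.0064). It overlaps mt-Nd4, with which it shares a transcript. That gene was at 1460 CPM in TGR and 1657 CPM in control (log2 ratio −0.18). The last of the row, mt-Nd5, was at 200.4 CPM in TGR and 206 CPM in control (log2 ratio −0.04). On the opposite strand, and overlapping mt-Nd5, mt-Nd6 had 115 UMIs in TGR and 195 UMIs in control (log2 ratio −1.18, interval −1.53 to −0.84), the smallest counts among the 13. The complex III message mt-Cytb was at 1479 CPM in TGR and 1958 CPM in control (log2 ratio −0.41). Summed by complex, the mtDNA messages of complex I had a log2 ratio of −0.56, those of complex IV −0.0042 and those of complex V −0.22.

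Within the pool of mtDNA messages, which does not depend on the scaling of the libraries, mt-Co1 made up 28.7% in TGR and 17.4% in control. The share of mt-Nd1 was 7.73% in TGR and 12.2% in control. Cell by cell, the median share of mt-Co1 was 28.2% in TGR (80% of cells between 20.8% and 36.7%) and 16.9% in control (80% between 11.4% and 23.0%), over 2475 TGR and 2891 control cells with at least 50 mtDNA UMIs. The middle of the TGR distribution thus lay above the range of most control cells. The mitochondrial share of a cell, which is often read as a sign of cell quality, was also compared, in bins chosen after the values were seen. In cells with under 2% mt- UMIs the share of mt-Co1 was 31.9% in TGR and 17.1% in control, and in cells with 5 to 10% it was 27.5% in TGR (28 cells) and 17.7% in control (163 cells). The share was higher in TGR in each of the 4 bins. More than 95% of the 50-base words of the 3′ ends of mt-Co1, mt-Co2, mt-Co3, mt-Atp6, mt-Nd3 and mt-Nd4l also occur in annotated nuclear copies of mtDNA, so the levels of these 6 messages are uncertain by whatever was counted there. For mt-Nd2 it was 17.7%.

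**Figure D3:**
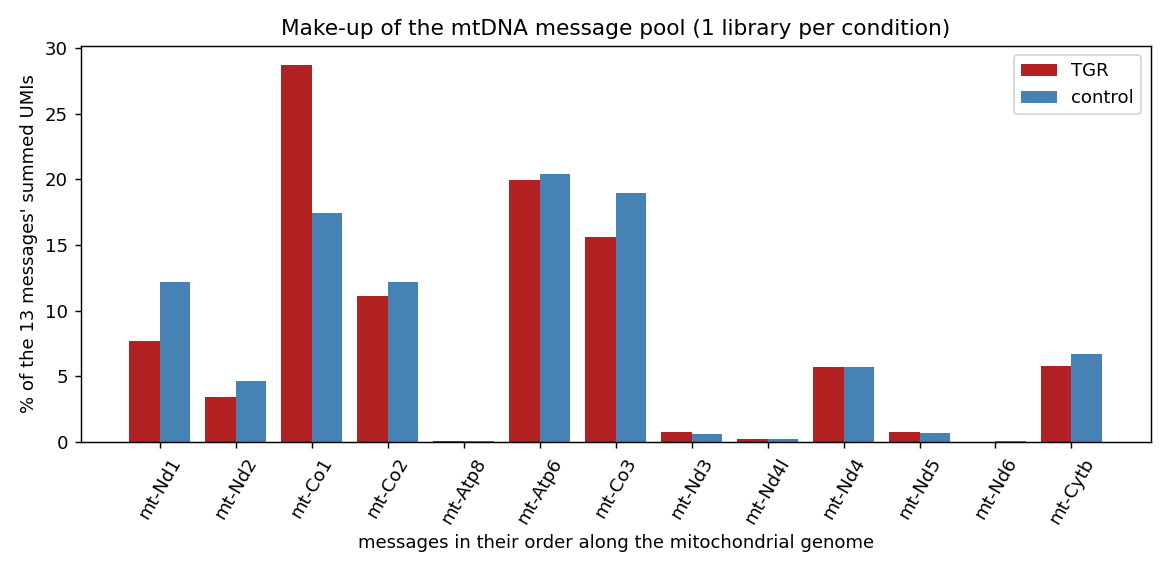
Bars give each message's share of the summed UMIs of the 13 mtDNA messages in TGR and control, in their order along the mitochondrial genome. The share of mt-Co1 is 28.7% in TGR and 17.4% in control, and mt-Nd1 and mt-Nd2, which precede it, have smaller shares in TGR.

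Nuclear messages were then set against those of mtDNA. There were 0.549 nuclear UMIs per mtDNA UMI in TGR and 0.786 in control, so nuclear messages gave 35.5% (interval 35.3 to 35.6) of the members' UMIs in TGR and 44.0% (43.9 to 44.1) in control. The log2 difference was −0.52 (interval −0.53 to −0.51). It does not depend on the scaling of the libraries. With all deposited barcodes and no mitochondrial limit, which adds 2 TGR and 209 control barcodes, the log2 difference was smaller in size, at −0.34. Within cells called G1 it was −0.45, within S −0.53 and within G2/M −0.59.

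By complex, the nuclear to mtDNA ratio differed most in complex V, at 1.19 in TGR and 1.62 in control (log2 difference −0.45, interval −0.47 to −0.43). For complex III it was 1.52 in TGR and 1.83 in control (log2 difference −0.26, interval −0.29 to −0.24). For complex I, without Ndufa4, it was 1.14 in TGR and 1.26 in control (log2 difference −0.15, interval −0.16 to −0.13). Within cells called G1 the order of these differed, with −0.11 for complex III (interval −0.18 to −0.03) and −0.14 for complex I (interval −0.19 to −0.10), and these intervals overlap. The summed nuclear messages of complexes I and V had like log2 ratios in these sets (−0.71 and −0.67), and the summed mtDNA messages did not (−0.56 and −0.22). The mtDNA side of each ratio rests on few messages, so the order describes these sums. In complex V mt-Atp6 gave 100125 of 100547 mtDNA UMIs in TGR, and in complex III mt-Cytb is the only mtDNA message. In complex I the median log2 ratio of the 7 mtDNA messages was −0.18, against −0.56 for their sum. Complex IV, whose nuclear genes other than Ndufa4 are not members, had a ratio of 0.503 in TGR and 0.652 in control (log2 difference −0.38).

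**Figure D4:**
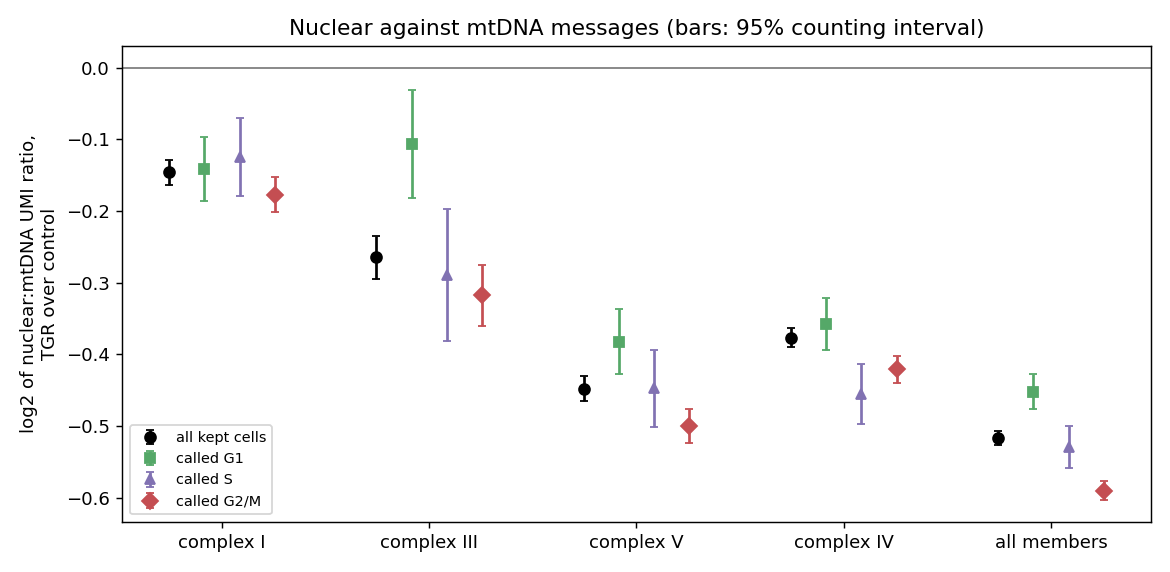
Points give the log2 of the nuclear to mtDNA UMI ratio in TGR over that in control, by complex and for all members, in all kept cells and in cells called G1, S or G2/M, with 95% counting intervals. Each point lies below 0, and complex I lies closest to 0 in all kept cells at −0.15.

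Because the libraries differed in phase calls, members were also counted within phases. Of 62 scored nuclear members 39 were lower in G1 (1493 TGR and 333 control cells), 37 in S (238 TGR and 361 control cells) and 41 in G2/M (815 TGR and 2342 control cells), and 0, 0 and 2 were higher. Among all scored genes 19.2% were lower in G1, 17.7% in S and 21.5% in G2/M, and 8.25%, 9.53% and 11.8% were higher. The medians of the nuclear members were −0.81, −0.73 and −0.88. Within a library the phases differed little. The nuclear messages summed to 14258 CPM in G1, 14407 CPM in S and 13449 CPM in G2/M in TGR, and to 22572 CPM, 23055 CPM and 22850 CPM in control.

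The lower nuclear level was spread over the cells rather than held by a few. Each cell was thinned to 1500 UMIs, and 0 TGR cells and 91 control cells were too shallow for this. Thinning keeps the scale of total UMIs, of which ribosomal protein messages took a median of 49.9% in TGR and 40.1% in control. Cells were not compared with ribosomal protein and mt- genes left out. The 63 nuclear messages had a median of 21 UMIs per TGR cell (80% of cells between 15 and 28) and 34 per control cell (80% between 24.5 and 43). Of the TGR cells 97.8% (interval 97.2 to 98.3) lay below the control median. For the mtDNA messages the medians were 37 UMIs in TGR (80% between 24 and 51) and 41 UMIs in control (80% between 28 and 65), and 62.1% (60.2 to 64.0) of TGR cells lay below the control median. By complex, the thinned medians were 8 UMIs in TGR and 14 UMIs in control for complex I, 3 in TGR and 5 in control for complex III, and 9 in TGR and 14 in control for complex V. Cells are not replicates of a condition, and free RNA in the droplets was not estimated.

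**Figure D5:**
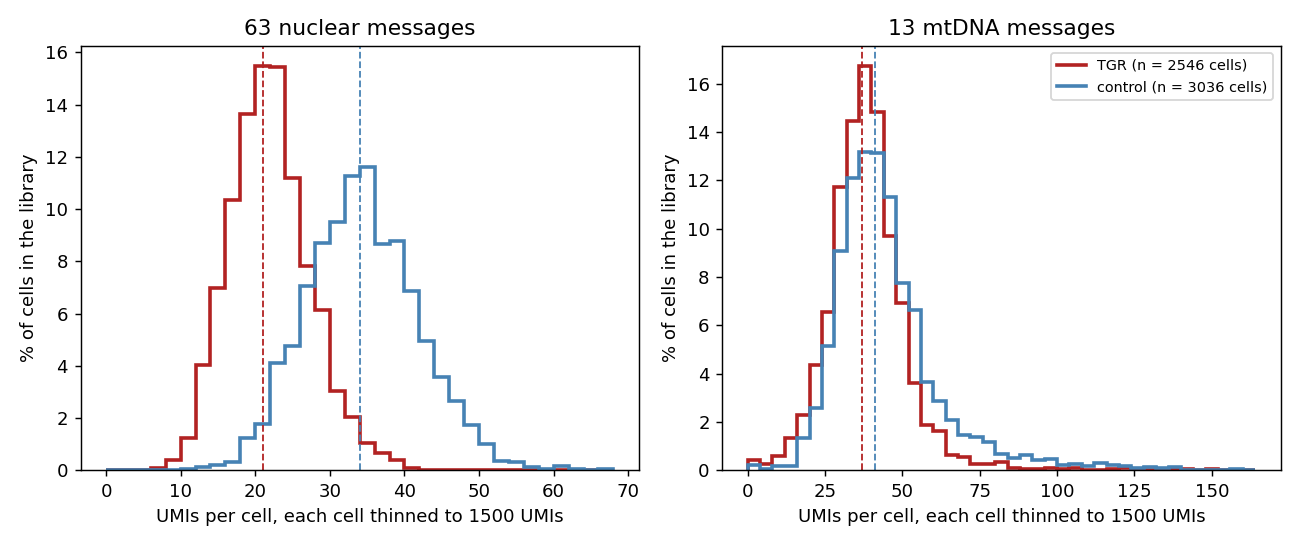
Histograms give the share of cells by UMIs of the 63 nuclear messages (left) and the 13 mtDNA messages (right), each cell thinned to 1500 UMIs, for TGR and control; dashed lines are medians. The nuclear medians are 21 in TGR and 34 in control, with little overlap of the bulk of cells, and the mtDNA medians are 37 in TGR and 41 in control with wide overlap.

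Other genes of the same organelle are given for comparison. Their counts are to be read beside the 21.8% of all scored genes that were lower and the 9.33% that were higher. Of the 1183 genes that reached 100 CPM in a library, ribosomal protein and mt- genes left out, 43.0% were lower. In complex II, which is entirely nuclear, 3 of 4 were lower and 0 higher, with the iron-sulphur subunit gene Sdhb at 100.4 CPM in TGR and 235 CPM in control and the membrane anchor gene Sdhc at 38.5 CPM in TGR and 70.8 CPM in control. In complex IV, counted with Ndufa4, 7 of 13 were lower and 2 higher (median log2 ratio −0.72). Its subunit genes Cox4i1 (1077 CPM in TGR and 1272 CPM in control) and Cox8a (1193 CPM in TGR and 1498 CPM in control) did not reach 1.5-fold, and Cox6a2, an isoform typical of muscle, had 1266 UMIs in TGR and 2 UMIs in control. Mitochondrial ribosomal protein genes, which serve the translation of the 13 mtDNA messages, had 42 lower and 1 higher among 74 scored (median log2 ratio −0.71). Genes of the protein import machinery had 10 lower and 0 higher among 15 scored. Among them, Timm17a was at 65.4 CPM in TGR and 141 CPM in control and the small translocase gene Timm13 at 188 CPM in TGR and 397 CPM in control. Tomm20, the receptor at the outer membrane, was at 700 CPM in TGR and 824 CPM in control, and Tomm7 stood at 486 CPM in TGR and 347 CPM in control (log2 ratio 0.49).

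Assembly and accessory factors were counted by list, to be read beside the 21.8% of all scored genes that were lower. The shares for complex III (20.0%) and complex V (16.7%) are near that value. For complex I 5 of 8 were lower, including Ndufaf4 (26.8 CPM in TGR and 45.7 CPM in control), Ndufaf2 (23.5 CPM in TGR and 36.7 CPM in control) and Ndufaf7 (8.23 CPM in TGR and 14.8 CPM in control). For complex III 1 of 5 was lower, Uqcc2 (117 CPM in TGR and 260 CPM in control), and 1 higher, Ttc19 (10.8 CPM in TGR and 6.86 CPM in control), while Uqcc3 stood at 162 CPM in TGR and 136 CPM in control. For complex V 1 of 6 was lower, Atpif1, the inhibitor of ATP hydrolysis by the enzyme, at 245 CPM in TGR and 497 CPM in control. The small accessory subunit gene Usmg5 was at 203 CPM in TGR and 297 CPM in control, and 2010107E04Rik at 392 CPM in TGR and 500.5 CPM in control. In ubiquinone synthesis 2 of 5 were lower, Coq7 (15.6 CPM in TGR and 46.8 CPM in control) and Pdss1 (3.91 CPM in TGR and 10.9 CPM in control), and Coq2 was at 26.5 CPM in TGR and 36.1 CPM in control.

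Genes that act on mtDNA and its transcripts were measured too. Of 4 scored genes of mtDNA transcription and replication 1 was lower, Ssbp1, the single-strand binding protein, at 59.5 CPM in TGR and 90.5 CPM in control. Tfam, which packages mtDNA and starts its transcription, was at 44.1 CPM in TGR and 56.4 CPM in control (log2 ratio −0.35). Of 8 genes of mitochondrial RNA stability and processing 0 were lower and 1 higher, Mtpap, the mitochondrial poly(A) polymerase, at 21.4 CPM in TGR and 14.2 CPM in control. Slirp, which stabilises mtDNA messages, was at 116 CPM in TGR and 139 CPM in control, Hsd17b10 at 75.0 CPM in TGR and 64.5 CPM in control, and the tRNA-processing gene Elac2 at 11.4 CPM in TGR and 14.9 CPM in control. Among 7 scored regulators of mitochondrial biogenesis 2 were lower, Nrf1 (23.2 CPM in TGR and 40.3 CPM in control, log2 ratio −0.80) and the coactivator gene Pprc1 (7.92 CPM in TGR and 15.4 CPM in control). The counts of 1 of 4 and 2 of 7 are near the 21.8% of all scored genes that were lower. Likewise the 1 of 8 counted as higher is near the 9.33% of all scored genes that were higher. Yy1 was at 59.6 CPM in TGR and 64.3 CPM in control and Myc at 28.8 CPM in TGR and 34.7 CPM in control. Ppargc1a, which encodes PGC-1 alpha, had 0 UMIs in both libraries. With 3 counts taken as the limit that 0 allows, it lay below 0.152 CPM in TGR and 0.204 CPM in control.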

How the data were processed

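The matrices, 1 per condition, hold whole-number UMI counts per gene and barcode as deposited, with no normalization. Libraries were made with 10x Chromium v2 kits, per the labels' protocols. Per the submitters' processing notes, the tools were Cell Ranger 2.2 and Seurat 3 and the build mm10, with no role given for each. How reads on near-identical copies were counted is not given in the sources used here. Per the labels, about 5000 cells were loaded and 3000 recovered per channel, and the files hold 2548 TGR and 3336 control barcodes.

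Cells with at least 500 genes and under 10% mt- UMIs were kept, with doublets left in and not called. Counts were summed per library (19696068 UMIs in TGR and 14730128 in control) and scaled to CPM. Log2 ratios have 0.5 UMI added per library and run TGR over control. The split of a gene's UMIs between the libraries gave its interval (exact Clopper-Pearson), and the script was tested on simulated data. With 1 library per condition no test was run. Phases were called with scanpy 1.11.5 after thinning to 1500 UMIs. Coordinates come from GENCODE M21 (GRCm38), which matched 76 of 76 members, and promoter windows from RefSeq (GRCm38.p6).

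The members, lists and alternatives were chosen with earlier results of these data known. The text names all mtDNA, complex III, subunit c, complex I core and F1 genes, members at least 1.5-fold higher, the extremes of complexes I and V (4 lowest and 3 highest ratios, 2 highest levels), and from each other list the 2 largest ratios by size and the 2 highest levels. Genes used to mark a limit, and Atp5h, Atp5l and Ppargc1a, were named after their values were seen. A gene that met the rule is not reported here. The 14 alternatives include edgeR 4.0.16 TMM factors and DESeq2 1.42.0 size factors.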

Additional observations from a re-analysis of the deposited data

How the results depend on the processing

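Across the 14 alternatives the medians of complexes I, III and V and the nuclear minus mtDNA log2 difference stayed below 0. Alternatives of scaling, of the limit on low values and of the pseudocount cannot change the nuclear minus mtDNA difference, so they do not check it. The number of nuclear members counted as lower ran from 31 to 42. Of the 46 members counted as lower or higher (3 mtDNA messages among them), none turned to the opposite sign under any alternative. The median of the mtDNA messages did, at 0.042 with totals that leave out ribosomal protein and mt- genes, a scaling that lifts all ratios by 0.26; the medians of complexes I, III and V were then −0.59, −0.59 and −0.39, and 35 of the 46 calls were kept. With TMM factors the medians of complex V and mtDNA messages were −0.60 and −0.18, and with DESeq2 size factors that of mtDNA messages was −0.20. With all deposited barcodes the mtDNA median was −0.39, the nuclear minus mtDNA difference −0.34 and the number of higher members 1. With under 5% mt- UMIs the mtDNA median was −0.17 and the difference −0.58. In cells called G1 the mtDNA median was −0.27, the difference −0.45 and 0 members were higher; in S the complex III median was −0.67, the mtDNA median −0.21, the difference −0.53 and 0 were higher; in G2/M the complex V median was −0.70, the mtDNA median −0.20 and the difference −0.59. With control cells reweighted to the phase shares of TGR 0 were higher. In cells with 3000 to 8000 UMIs the complex V median was −0.60 and the difference −0.44. A minimum of 50 CPM and a pseudocount of 1 UMI each left 1 higher member. In cells with a CD8 marker and no other marker, 41 were lower, 2 higher and the difference was −0.51. The causes of these shifts were not tested. No paired analysis was possible because there was 1 library per condition. Depth limits mt-Nd6, mt-Atp8, Ndufs1 and Atp5sl, whose intervals are wide.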
